A study of Homo sapiens with 16 samples.

Results

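Boundaries between contact domains were taken from Hi-C maps of K562 cells, and those called after 0.25 h of digestion but not after 12 h are described here. Of 6332 autosomal boundaries at 0.25 h, 1078 (17.02%) had no 12 h boundary within 2 bins of 20 kb. These members were chosen by their measured scores at 0.25 h and 12 h, so values at those times are given as a description with no test. The 12 h maps held 5784 boundaries, of which 549 (9.492%) had no 0.25 h boundary within 2 bins. The 1 h and 3 h maps, which the choice did not use, held 6203 and 6120 boundaries.

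K562 is an established human leukaemia cell line. In Hi-C, crosslinked chromatin is cut, neighbouring ends are joined, and sequenced joints count how often a pair of genomic bins lay close together. All groups were formaldehyde-fixed K562 cells cut with the restriction enzyme HindIII, and the groups differed in digestion time alone, 0.25, 1, 3 or 12 h, with 2 replicate libraries each. The submitters varied the time to catch the most accessible boundaries at the shortest digestion. No label says whether replicates came from separate cultures, so the spread between them may be technical.

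Mammalian chromosomes fold into domains within which contacts are frequent. Few contacts cross the boundary between neighbouring domains, which is often held by the factor CTCF where it stalls cohesin, the ring complex that extrudes chromatin loops. Active promoters and housekeeping genes are also frequent at boundaries, and such sites lie in open chromatin that nucleases reach readily. No factor binding or accessibility was measured in these files.

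The insulation score used here is the log2 of the mean balanced contact signal crossing a bin, between the 10 bins to its left and the 10 to its right, over the chromosome mean. A low score marks a bin that few contacts cross. A boundary is a local minimum of the score with a prominence of at least 0.2, where prominence is how far the score rises from the minimum before a deeper one is reached. The 2 libraries of a time were summed before scoring, and each was then scored alone.

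The libraries differed in depth along with digestion time. The 0.25 h libraries held 114338328 and 62777251 recovered contacts, and the 12 h libraries 176412222 and 153465906. The 1 h and 3 h libraries lay between 78895077 and 145441737. Contacts joining a 20 kb bin to itself made up 20.4% and 24.2% of contacts in the 0.25 h libraries, 17.9% to 19.3% in those of 1 h and 3 h, and 11.7% and 11.5% in those of 12 h. Depth and this share cannot be fully told apart from digestion time. Results with contacts thinned or balanced again are given beside the main ones. Thinned contacts kept the balancing factors and the present bins of the full libraries, so thinning made depth equal only in part.

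Most of the boundaries without a 12 h partner were shallow. Their median prominence at 0.25 h was 0.277, with quartiles of 0.231 and 0.402, against 0.829 for the 5254 boundaries that did have a 12 h partner. Between 0.2 and 0.3 lay 612 members (56.8%), between 0.3 and 0.5 another 271, between 0.5 and 1 another 138, and at 1 or more 57. Members made up 59.5% of all 0.25 h boundaries in the shallowest of these classes and 2.75% in the deepest. A shallow minimum at 0.25 h therefore had a 12 h partner less often in this description, and a prominence of 1 or more nearly always went with one.

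At the threshold itself, the 3 members of lowest prominence were chr9:134160001-134180000, chr1:226160001-226180000 and chr10:10760001-10780000, at 0.2004, 0.2006 and 0.2007. The 3 unmatched minima just under the threshold had prominences of 0.1998 or more. In the first of these regions the score was -1.07 and -1.004 in the 0.25 h libraries and -0.91 and -1.004 in the 12 h libraries, so the groups touched. In the other two the 0.25 h and 12 h ranges overlapped as well. At the distance limit, the 3 deepest boundaries whose 12 h partner lay at exactly 2 bins had prominences of 1.98 to 2.10, and the 3 deepest members with a 12 h boundary at 3 bins had 1.85 to 1.87.

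A dip in the score remained at most members after 12 h. Of the 1073 members scored at 12 h, 976 (90.96%) still had a local minimum within 2 bins, of which 477 had a prominence of 0.1 to 0.2 and 499 one under 0.1. Of all scored autosomal bins, 57.5% lay that close to some 12 h minimum. The other 97 had no minimum there, and 5 of the 1078 could not be scored at 12 h. At 1 h 1024 of 1076 scored members had a minimum within 2 bins, of median prominence 0.178, and at 3 h 1029 of 1076, of median prominence 0.168. The 12 h median was 0.0977. Of all 0.25 h boundaries, 98.8% at 1 h, 98.9% at 3 h and 98.5% at 12 h had a minimum that close, of median prominence 0.694, 0.688 and 0.657.

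**Figure D1:**
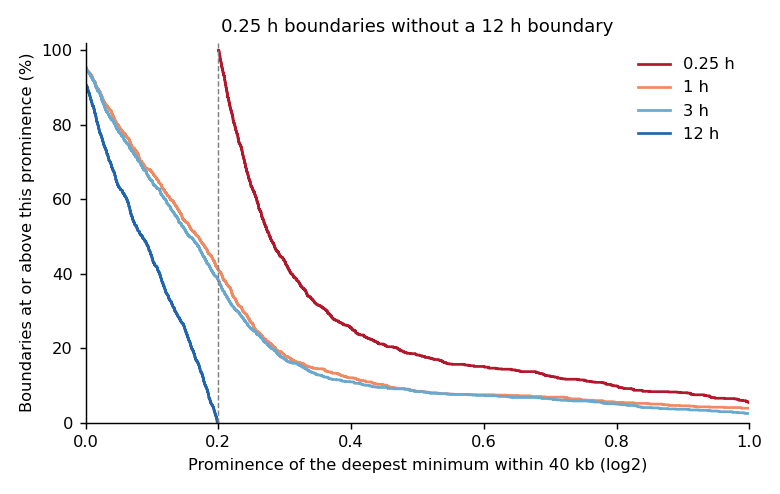
Share of the 1078 boundaries (vertical axis, percent) whose deepest local minimum within 40 kb reached the prominence on the horizontal axis (log2 units), with 1 line per digestion time and members without a minimum set at 0. The 0.25 h and 12 h lines start and end at the threshold of 0.2 by the choice of members, while the 1 h and 3 h lines cross it close to the 40.91% and 38.13% of members that had a boundary at those times.

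The dip was measured as the mean score 120 to 200 kb to both sides minus the score at the member's bin. Its median in single libraries was 0.227 and 0.228 at 0.25 h, 0.152 and 0.156 at 1 h, 0.151 and 0.145 at 3 h, with 0.112 and 0.115 at 12 h. The libraries of a time lay close together, and the 1 h and 3 h libraries lay between those of 0.25 h and 12 h. In the summed maps a dip above 0 was found at 966 members after 0.25 h of digestion. It was found at 870 after 1 h, at 878 after 3 h and at 846 after 12 h. These were 89.8%, 80.9%, 81.7% and 78.9% of members, against 97.2%, 95.3%, 95.4% and 95.03% of all 0.25 h boundaries. At the boundaries with a 12 h partner, the median dip was 0.651 at 0.25 h and 0.6 at 12 h. Since members were taken where 0.25 h was low and 12 h was not, a difference in this direction between those times follows from the choice. The place of the 1 h and 3 h libraries between them can follow from the choice as well. A graded change over the times was not tested.

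**Figure D2:**
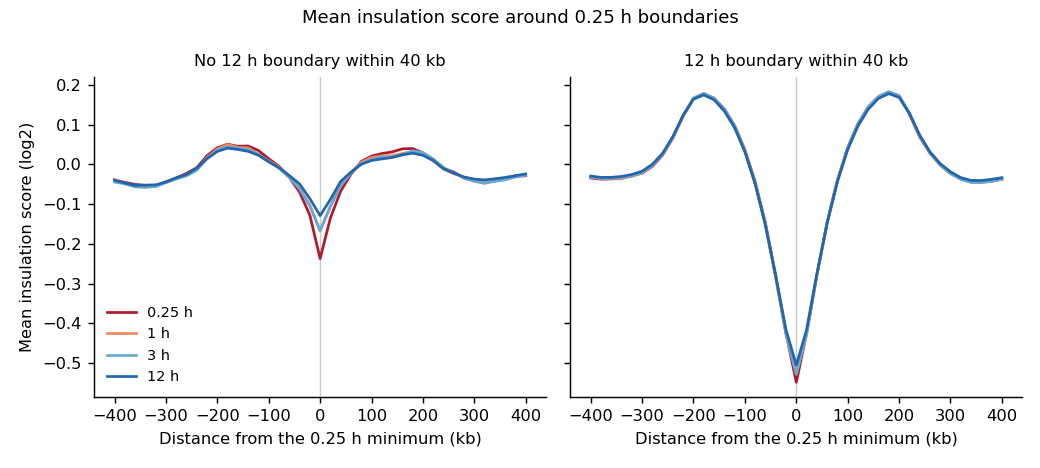
Mean insulation score (vertical axis, log2) at distances up to 400 kb from the 0.25 h minimum (horizontal axis, kb), with 1 line per digestion time, for the 1078 boundaries without a 12 h partner on the left and the 5254 with one on the right. On the left the 1 h and 3 h lines fall between those of 0.25 h and 12 h at the minimum, which can follow from the choice of members. From about 100 kb outward all times run close together.

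The 1 h and 3 h maps, made from other libraries, held a boundary at a minority of the members, and at a majority when the members were chosen on contacts without balancing. A 1 h boundary lay within 2 bins of 441 members (40.91%), while 85.8% of all 0.25 h boundaries had one. A 3 h boundary lay within 2 bins of 411 members (38.13%), against 85.2% of all 0.25 h boundaries. Of all scored autosomal bins, 23.7% lay within 2 bins of a 1 h boundary and 23.4% within 2 bins of a 3 h boundary. Among bins over 2 bins from a 12 h boundary, as the members are, the shares were 5.77% and 5.33%. The members stood above the level of such bins and below that of 0.25 h boundaries in general. Both can follow from the choice. Every member was already a called minimum at 0.25 h, and most 0.25 h boundaries, unlike the members, were called again at 12 h. Without balancing, where 2150 boundaries had no 12 h partner, 55.95% of them had a 1 h boundary and 52.98% a 3 h boundary, against 88.7% and 88.55% of all 0.25 h boundaries.

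Both later times called 238 members (22.08%), only 1 h called 203, only 3 h called 173, and neither called 464 (43.04%). Over all 0.25 h boundaries these shares were 79.9%, 5.87%, 5.37% and 8.88%. Within classes of prominence the members also stood lower than boundaries with a 12 h partner, which were themselves selected on being called a second time. In the class from 0.2 to 0.3, 36.4% of members had a 1 h boundary and 32.5% a 3 h boundary, against 78.8% and 80.05% of boundaries with a 12 h partner. In the class of 1 or more, 61.4% and 56.1% of members had one, against 98.9% and 98.8%. With all times thinned to equal numbers of contacts 2 to 20 bins apart, 46.7% of the then 1111 members had a 1 h boundary and 44.8% a 3 h boundary, against 85.8% and 84.7% of all 0.25 h boundaries.

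The score itself was tested between 1 h and 3 h, the only pair of times the choice did not touch. Among the 6328 boundaries scored in all 4 libraries, limma called 0 (0%) at a Benjamini-Hochberg adjusted p under 0.05, and 313 (4.95%) had an unadjusted p under 0.05. Of the 1076 members tested, 0 were called and 49 (4.55%) passed the unadjusted threshold, 26 lower and 23 higher at 1 h. The lowest adjusted p of limma among them was 0.77, and the median difference of 1 h minus 3 h was -0.0047 over members and -0.002 over all boundaries. Both 1 h scores lay below both 3 h scores at 195 members (18.09%), against 17.5% of all boundaries. They lay above at 167 members (15.49%), against 16.6% of all boundaries. The members thus stood near the level of all 0.25 h boundaries in both directions. With all 129909 scored autosomal bins as features, limma called 0. There 79 members (7.34%) passed the unadjusted threshold, 39 lower and 40 higher at 1 h, against 4.86% of all bins. On contacts without balancing the directions were uneven, in members and in all boundaries alike: 70 members (6.51%) passed the unadjusted threshold, 47 lower and 23 higher at 1 h, against 278 lower and 121 higher over all boundaries (6.31%). There limma called 1 boundary, the member chr1:120760001, with an adjusted p of 0.0234. It is singled out because of this value.

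Replicates supported the members unevenly. Scored alone, the 0.25 h libraries called 814 and 783 of the 1078 within 2 bins, and the 12 h libraries called 159 and 208. Of all 0.25 h boundaries, the 0.25 h libraries called 93% and 89.5%, and the 12 h libraries 82.5% each. Both 0.25 h libraries called 552 members (51.2%), against 83.3% of all 0.25 h boundaries. Exactly 1 of them called 493, and 33 appeared in the sum only. Of the 5254 boundaries with a 12 h partner, exactly 1 of them called 517, and 17 appeared in the sum only. At 12 h, 734 members were called in neither library, 321 in 1 and 23 in both, although the sum had called none. Over all 0.25 h boundaries these shares were 11.9%, 11.2% and 76.9%. The choice of members used both times. The scores of both 0.25 h libraries lay below those of both 12 h libraries at 602 members (55.8%), against 35.4% of all 0.25 h boundaries, a contrast the choice itself used. At 450 members (41.7%) the libraries of the 2 times overlapped, against 55.9% of all, and at 26 (2.41%) the 0.25 h libraries were both higher, against 8.69% of all.

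Support from every library was the exception. Both 0.25 h libraries and neither 12 h library called 338 members (31.35%), while 5.48% of all 0.25 h boundaries met this condition. The choice of members used the sums of these same libraries, so this contrast follows largely from it. Of the 5254 boundaries with a 12 h partner, 9 met the condition. The median prominence of the 338 members was 0.286, near that of all members. A 1 h boundary lay within 2 bins of 155 of them (45.9%) and a 3 h boundary within 2 bins of 132 (39.1%), against 40.91% and 38.13% of all members. Their median dip was 0.241 and 0.252 in the 0.25 h libraries, 0.161 and 0.171 at 1 h, 0.168 and 0.156 at 3 h, with 0.111 and 0.110 at 12 h. With 1 replicate per time at its own depth, the count was 1969 from the second replicates and 1315 from the first. With these libraries thinned to equal contacts 2 to 20 bins apart, it was 1920 and 1868.

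More members were called in single 12 h libraries after thinning. After every library was thinned to the same number of contacts 2 to 20 bins apart, the 12 h libraries called 383 (35.5%) and 357 (33.1%) of the members, where at their own depth they had called 159 and 208. Of all 0.25 h boundaries the thinned 12 h libraries called 81.6% and 81.4%. The 0.25 h libraries then called 741 and 783, the 1 h libraries 528 and 521, and the 3 h libraries 498 and 515, against 89.6%, 89.5%, 84.3%, 84%, 84.3% and 83.8% of all 0.25 h boundaries in the same order. With each time's sum thinned instead, 1111 boundaries of 0.25 h lacked a 12 h partner, and 877 of the 1078 members lay within 2 bins of one of them. The count of boundaries seen only at 12 h was higher after this thinning, at 758 against 549.

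Comparing single libraries sets these counts beside the disagreement of replicates. With contacts 2 to 20 bins apart made equal, though not total or self contacts, 24.1% and 24.3% of the boundaries of one 0.25 h library had none within 2 bins in the other, and 22.7% and 23.5% did so between the 12 h libraries. Across the times, 26.3% to 27.3% of the boundaries of a 0.25 h library had none in a 12 h library. In the reverse direction it was 21.8% to 22.6%. The share unmatched from 0.25 h to 12 h therefore exceeded that between 0.25 h replicates by about 2 to 3 percentage points. The reverse share lay below that between the 12 h replicates. The lists also differed in length, with 7107 and 7099 boundaries in the thinned 0.25 h libraries and 6688 and 6619 in those of 12 h. Fewer partners were thus available at 12 h, and the part of this in the shares was not tested. At the libraries' own depths, 18.5% of the boundaries of the first 0.25 h library were unmatched in the second, and 20.1% and 20.3% in the 12 h libraries. For the second 0.25 h library it was 24.5% in the first, and 28.03% and 27.7% in the 12 h libraries.

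**Figure D3:**
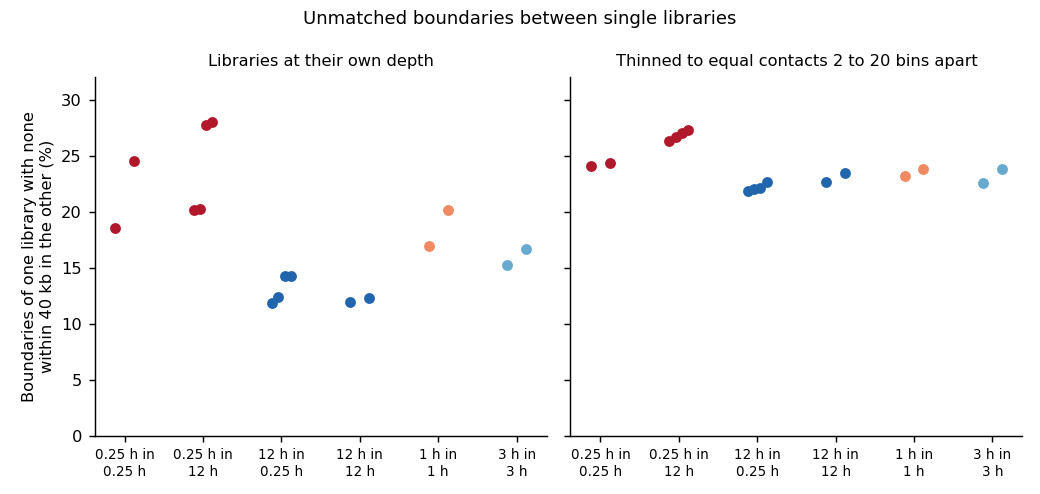
Boundaries of one library with none within 40 kb in another (vertical axis, percent), by the times of both libraries (horizontal axis), at the libraries' own depth on the left and thinned to equal contacts 2 to 20 bins apart on the right, 1 point per ordered pair of libraries. On the right the 4 points of 0.25 h in 12 h lie between 26.3% and 27.3%, above the points within each time, which lie between 22.5% and 24.3%. The thinned 12 h libraries held fewer boundaries than those of 0.25 h, so fewer partners were available there.

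The other pairs of times gave smaller counts by the same rule. At equal contacts 2 to 20 bins apart, 901 boundaries of 0.25 h (14.2%) lacked a 1 h partner and 968 (15.3%) lacked a 3 h partner, against 1111 (17.6%) for 12 h. A 12 h partner was also missing for 1008 boundaries of 1 h (16.1%) and for 1033 of 3 h (16.5%). Between 1 h and 3 h it was 859 of 6264 (13.7%), and 860 of 6257 (13.7%) in the reverse direction. Full support in every library was met by 201 of the 0.25 h boundaries (3.17%) against 12 h after the same thinning, and by 70 to 154 for the other ordered pairs of times. These pairs share libraries with each other, and the thinned maps held 6332 boundaries at 0.25 h but 5958 at 12 h. They are therefore set side by side without a test.

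A first run, per the titles of the same libraries, was given in bins of 50 kb. No label says whether the files of the second run hold its reads too. The median score at the members was there -0.175 and -0.170 at 0.25 h, -0.132 and -0.129 at 1 h, -0.128 and -0.132 at 3 h, with -0.113 and -0.101 at 12 h. The 0.25 h mean was the lower at 653 of 1050 members scored in both times (62.2%), where 55.1% of all 0.25 h boundaries showed this direction. Both 0.25 h libraries lay below both 12 h libraries at 266 members (25.3%), against 20.3% of all boundaries. Since its libraries are by their titles those of the main values, this first run is not counted as a new sample of either time.

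A 12 h boundary lay 3 to 5 bins from 386 members (35.8%), while 32.3% of all scored bins over 2 bins from a 12 h boundary had one that near. The nearest 12 h boundary was 3 bins away for 180 members, 4 or 5 bins for 206, 6 to 10 for 266, 11 to 20 for 299 and more than 20 for 127, with a median of 160 kb. For 284 members (26.35%) a boundary found only at 12 h lay 3 to 5 bins off, against 2.98% of the scored bins over 2 bins from a 12 h boundary. These shares are a description, since the 0.25 h and 12 h calls that chose the members also define the boundaries found only at 12 h. Those 3 bins away had a median prominence of 0.478 and a median dip that went from 0.405 at 0.25 h to 0.301 at 12 h. Those 11 to 20 bins away had a median prominence of 0.244 and a median dip that went from 0.198 to 0.0949.

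The deepest members were nearly all of the neighbouring kind. Of the 57 with a prominence of 1 or more, 52 had a 12 h boundary 3 to 5 bins away, against 113 of the 612 members with a prominence under 0.3. Bins absent from the files lay within 10 bins of 27 of the 57. Only 5 deep members stood more than 5 bins from a 12 h boundary, and 3 of the 57 were not scored at 12 h. Beyond 20 bins, a 1 h boundary lay at 34 of 127 members (26.8%) and a 3 h boundary at 31 (24.4%). Of all scored bins that far from a 12 h boundary, 6.6% and 5.26% had one.

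The 6 members of highest prominence show both kinds. The highest, at 2.23, was chr8:12340001-12360000, which scored -1.71 and -1.82 at 0.25 h, -1.57 and -2.90 at 1 h, -2.34 and -2.59 at 3 h, and -1.77 in the second 12 h library. It was not scored in the first 12 h library, and 6 of the bins within 10 of it were absent. It is thus a member because its 12 h sum had no score, while 1 h and 3 h both called a boundary at the same bin.

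At chr8:80520001-80540000 the score was -1.42 and -1.29 at 0.25 h and -1.34 and -1.37 at 12 h, so the groups overlapped. Its 12 h boundary lay 60 kb away, with a prominence of 1.85 against 1.86 here. The region chr19:50640001-50660000 was alike, at -1.07 and -1.70 at 0.25 h and -1.31 and -1.25 at 12 h, with a 12 h boundary 60 kb away, and there the first 12 h library alone called a boundary within 2 bins. In both regions the lowest bin lay elsewhere at 12 h while the score at the member's bin kept within the replicate spread.

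The region chr12:56020001-56040000 had a prominence of 1.94 and scored -0.95 and -1.01 at 0.25 h, -0.98 and -0.80 at 1 h, -1.15 and -0.79 at 3 h, with -0.59 and -0.83 at 12 h. Both 0.25 h values lay below both 12 h values. The summed difference of 0.25 h minus 12 h was -0.39, and -0.18 without replicate 1, -0.19 in the first run, -0.10 without balancing and -0.09 with 15 by 15 bins. Its nearest 12 h boundary lay 80 kb away with a prominence of 1.74, and there the summed score was -0.71 at 0.25 h and -0.92 at 12 h. The lowest point of this stretch thus lay 80 kb apart in the 2 maps, although the second 12 h library alone called a boundary within 2 bins of the member.

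A deep member far from any 12 h boundary was chr7:144120001-144140000, with a prominence of 1.77 and the nearest 12 h boundary 580 kb off. It scored -1.22 and -1.05 at 0.25 h, -1.07 and -0.78 at 1 h, -0.85 and -0.84 at 3 h, with -0.50 and -0.58 at 12 h. All 0.25 h values lay below all 12 h values, and the 1 h values overlapped those of 0.25 h, while the 3 h values lay between those of 0.25 h and 12 h. The summed difference of 0.25 h minus 12 h was -0.57, and -0.23 in the first run and -0.34 with 15 by 15 bins. A minimum of prominence 0.170 remained there in the summed 12 h map, and the first 12 h library alone called a boundary. Both 1 h and 3 h called it, with prominences of 0.940 and 0.909.

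Among the 338 members with support from every library, 6 with the largest 12 h minus 0.25 h difference of the summed score were examined one by one. The largest was at chr19:36640001-36660000, which scored -1.01 and -1.41 at 0.25 h, -0.88 and -0.73 at 1 h, -0.58 and -0.56 at 3 h, with -0.42 and -0.58 at 12 h. Its summed score was lower by 0.61 at 0.25 h than at 12 h, and all 0.25 h values lay below all others. Its prominence was 0.355, and a 12 h boundary of prominence 1.65 lay 100 kb away. At that boundary the summed score was -1.10 at 0.25 h and -1.14 at 12 h. In the first run the difference had the opposite sign, with 0.25 h higher by 0.42. It held 572 contacts in the summed 0.25 h libraries, where the median member held 1460.

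The region chr16:90040001-90060000 scored -0.09 and -0.07 at 0.25 h, 0.78 and 0.54 at 1 h, 0.37 and 0.70 at 3 h, with 0.36 and 0.54 at 12 h. Its 0.25 h libraries alone stood low, and the 3 later times overlapped one another. A 12 h boundary of prominence 0.331 lay 60 kb away. Of the bins within 10 of it, 7 were absent, and its summed difference of 0.25 h minus 12 h was -0.55, and -0.35 when self contacts were left out of the balancing. In chr7:76560001-76580000 the scores were -0.57 and -0.52 at 0.25 h, -0.09 and -0.61 at 1 h, -0.12 and -0.28 at 3 h, with -0.0029 and -0.15 at 12 h. There the 1 h libraries fell on both sides of the 0.25 h values, and the summed difference was -0.49, and -0.25 without balancing. Its nearest 12 h boundary, of prominence 0.619, lay 160 kb away.

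The region chr22:42000001-42020000 scored -0.97 and -1.06 at 0.25 h, -1.17 and -0.73 at 1 h, -0.81 and -0.54 at 3 h, with -0.68 and -0.43 at 12 h. Both 0.25 h values lay below both 12 h values, and a 12 h boundary of prominence 0.261 lay 60 kb away. The summed difference was -0.44, and -0.29 without replicate 2, -0.24 in the first run and -0.16 without balancing. The region was among the 6 by prominence, at 1.87, and among the 6 by difference.

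The remaining 2 of these regions, chr12:280001-300000 and chr12:320001-340000, lie 40 kb apart near the end of the short arm of chromosome 12. The first scored -0.17 and 0.32 at 0.25 h and 0.36 and 0.33 at 12 h. The second scored -0.25 and 0.11 at 0.25 h and 0.16 and 0.29 at 12 h. In each, both 0.25 h values lay below both 12 h values, the 0.25 h replicates lay apart and the second stood closer to the 12 h libraries. The summed differences of 0.25 h minus 12 h, -0.52 and -0.46, were -0.01 and -0.18 without replicate 1 and -0.05 and -0.09 in the first run, and that of the first region was -0.31 without balancing. The 1 h and 3 h scores were -0.31, 0.10, -0.04 and -0.11 in the first region and -0.18, 0.05, -0.21 and 0.08 in the second, all below both 12 h scores, and all 4 of these libraries called a boundary there. The second region held 191 contacts in the summed 0.25 h libraries.

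**Figure D4:**
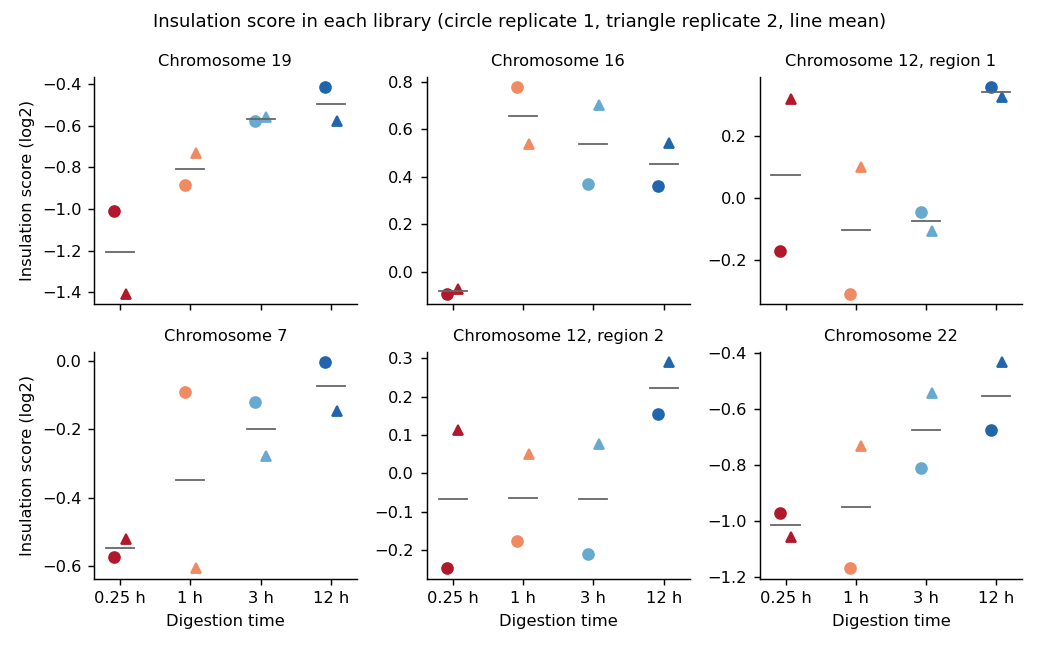
Insulation score (vertical axis, log2) in each of the 8 libraries by digestion time (horizontal axis) for the 6 fully supported members of largest difference, with circles for replicate 1, triangles for replicate 2 and lines for the mean of both. In all 6 regions both 0.25 h points lie below both 12 h points, which follows largely from picking them by the difference between these times. In both regions on chromosome 12 the replicates of 0.25 h lie far apart.

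Members lay in bins with fewer contacts than other boundaries. The median was 1460 contacts per bin in the summed 0.25 h libraries and 3183 at 12 h, against 1738 and 3731 at boundaries with a 12 h partner and 1996 and 4143 over all scored autosomal bins. Contacts of a bin with itself made up a median of 4.73% at members, 5.59% at boundaries with a partner and 7.57% over all bins at 0.25 h. Contacts with other chromosomes made up 11.9%, 10.9% and 11.2%. No bin was absent within 10 bins of 72.5% of members and of 77.8% of boundaries with a partner. The part of these differences in the calls was not tested.

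At the median, the bins of members held a smaller share of contacts at 0.25 h than at 12 h. The median log2 ratio of a bin's share of contacts at 0.25 h over that at 12 h was -0.16 at members, -0.13 at boundaries with a partner and -0.07 over all bins. The upper quartile at members was 0.0099, so some of their bins held a larger share at 0.25 h. A lean of a bin's contacts with other chromosomes toward the gene-rich chromosomes 19, 17 and 22 rather than the gene-poor 13, 18 and 4 could be measured at 800 of the 1078 members. The lean was taken against the median autosomal bin, and bins on these chromosomes themselves were left out. Of the 800 members, 420 (52.5%) lay above that median, against 61% of 4236 boundaries with a 12 h partner and 49.8% of 104621 bins. The share over all bins was set by this centring. A bin's share of contacts is only a rough measure of how often it was cut, because it also reflects the number of HindIII sites and mappability.

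The share of 0.25 h boundaries without a 12 h partner varied between chromosomes. At the libraries' own depth it was highest on chromosome 19, with 55 of 187 boundaries (29.4%), followed by chromosome 22 with 28 of 119 (23.5%) and chromosome 13 with 46 of 201 (22.9%). It was lowest on chromosome 21, with 10 of 82 (12.2%), and on chromosome 12, with 44 of 333 (13.2%). The order differed at equal contacts 2 to 20 bins apart, where chromosome 22 stood at 27.7%, chromosome 19 at 27.3%, chromosome 21 at 19.5% and chromosome 1 lowest at 12.7%. On chromosome 19 the reverse count was high as well, with 21% of its 12 h boundaries lacking a 0.25 h partner. Replicates also differed more there than on most chromosomes: 34.7% and 33.2% of boundaries in one 0.25 h library had none in the other at equal contacts 2 to 20 bins apart. From 0.25 h to the 12 h library of the same number it was 31.9% and 41.2% there. On chromosome 13 the shares between the 0.25 h replicates were 33.6% and 33.2%. The median bin of chromosome 19 held 702.5 contacts at 0.25 h, the lowest of the 22 autosomes, and that of chromosome 22 held 777.5.

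**Figure D5:**
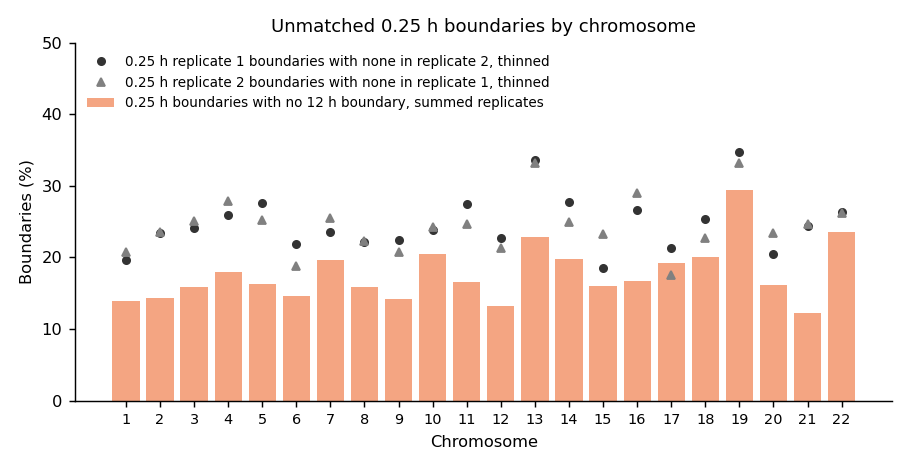
Share of boundaries (vertical axis, percent) by chromosome (horizontal axis), with bars for 0.25 h boundaries lacking a 12 h partner in the summed maps, and circles and triangles for boundaries of one 0.25 h library lacking a partner in the other, thinned to equal contacts 2 to 20 bins apart. Chromosome 19 has the highest bar, at 29.4%, and its replicate points stand at 34.7% and 33.2%. Bars are from summed maps and points from single thinned libraries, so their heights are not comparable.

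The spacing of members is given as a description, since it was not set against that of other boundaries or bins. The median distance to the nearest other member was 920 kb, and 94 had another member within 10 bins. Another boundary of 0.25 h lay within 5 bins of 132 members and within 10 bins of 364. Of all members, 667 stood more than 5 bins from any 12 h boundary and from any other 0.25 h boundary.

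Which boundaries counted as members depended on the processing. Without balancing, 2150 boundaries of 0.25 h lacked a 12 h partner, and 145 (13.45%) of the 1078 members lay within 2 bins of one of them. With the first or the second replicates alone, 669 (62.1%) and 600 (55.7%) of the members were found again. With 5 by 5 bins 2684 boundaries of 0.25 h lacked a 12 h partner and 284 (26.4%) of the members lay within 2 bins of one of them, and with 15 by 15 bins the numbers were 722 and 181 (16.8%). Without the self contacts of bins in the balancing, 1031 boundaries met the rule and 813 (75.4%) of the members were found again. Found again under each of equal contacts 2 to 20 bins apart, balancing without self contacts and both other diamonds were 39 members (3.62%), of which 24 had support from every library. The shares of all 0.25 h boundaries or bins lying that close are not given, and a longer list lies near more bins. These counts, and the 877 at equal contacts 2 to 20 bins apart, are therefore a description only.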

How the data were processed

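The deposited files list pairs of bins with a balanced contact signal, balanced by the authors in each file separately. HiC-Pro 2.11.1, Bowtie2 2.3.4.1 and hg19 are named in the submitters' processing notes, without their role. The second sequencing run, in 20 kb bins, gave the main values, and the first run, in 50 kb bins, an alternative. Its bin numbers were read through chromosomes 1 to 22, X, Y and M of hg19, whose bin total equals the highest number listed. The signal of both replicates was summed per time. A bin was scored when 60% of the 10 bins on each side were present. Whole contacts were recovered from the signal, with at least 99.9999957% of listed values of a library within 0.01 of a whole number. They were used for thinning and, separately, for balancing without self contacts. Thinned contacts were not balanced again and came from a single random draw. Read depth is given as contacts per library in the report.

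Scores of the 1 h and 3 h libraries were compared with limma 3.58.1 in R 4.3.3, with Benjamini-Hochberg adjustment over all 0.25 h boundaries. Boundary calls used scipy 1.17.1. Recovery, calling and test were tested on simulated data. In the simulation of this comparison, with 6328 boundaries, limma recovered 60 of 100 changes of 0.5 on the log2 scale. Of 100 changes of 1 it recovered 90, and it made 4 false calls. Smaller changes, such as the median 0.25 h minus 12 h score difference of -0.087 at members, were not simulated.

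Regions named are the 6 members of highest prominence, the 6 of largest difference among those with support from every library, and those at the limits of prominence and distance. A member past the test would have been named too. The members, the rule and the lists were chosen with earlier results of these data known. Alternatives were the diamond, prominence, distance, presence, balancing, depth, replicates, the replicate block and the run. No genes or sequences are named, since an hg19 genome or annotation was not used here.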

Additional observations from a re-analysis of the deposited data

How the results depend on the processing

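The count of 0.25 h boundaries without a 12 h partner, 1078, moved to 2684 with 5 by 5 bins, 1862 at a prominence of 0.1, 692 at a distance of 5 bins and 2150 without balancing, and ranged from 1315 to 1969 with 1 replicate left out. The share with a 1 h boundary, 40.9%, moved to 37.0% at 1 bin, 48.0% at 5 bins, 56.0% without balancing, 45.6% at equal totals, 46.7% at equal contacts 2 to 20 bins apart, and 32.7% to 39.7% without a replicate. The share with a 3 h boundary, 38.1%, moved to 42.0% with 15 by 15 bins, 41.3% at a prominence of 0.3, 44.1% at 5 bins, 53.0% without balancing, 43.5% at equal totals, 44.8% at equal contacts 2 to 20 bins apart, and 32.6% to 39.6% without a replicate. The cause was not tested. Equal contacts 2 to 20 bins apart and balancing without self contacts were chosen after seeing the data. limma called 0 boundaries between 1 h and 3 h, and 1 with the replicate block and 1 without balancing, both times chr1:120760001, a member chosen after its values were known (adjusted p of limma 0.0197 and 0.0234, against 0.77). Replicate numbers share only a number, since replicate differences correlated at -0.0349 to 0.0486 between times. Of 101 alternative values of the 0.25 h minus 12 h difference in 13 named regions, 42 moved by more than the replicate spread without a counted sign change. Those that moved by over 1.5 times in the regions of highest prominence or largest difference stand beside those regions, except where the difference was within the replicate spread. In 3 regions whose difference exceeded the replicate spread, it changed sign, in some settings to values within that spread. It was 0.42 at chr19:36640001 in the first run, 0.14 at chr9:134160001 and 0.11 at chr10:10760001 in the first run, 0.01 at chr10:10760001 with 15 by 15 bins, and in both latter regions from -0.17 to 0.00 and from -0.13 to 0.00 with 1 replicate left out. In 3 others, whose difference was within the replicate spread from the start, 11 values changed sign, between -0.51 and 0.12. That spread as the limit for calling a sign change was set after these values were seen. At equal total contacts the count was 1081, and at equal contacts 2 to 20 bins apart 1111.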
